A study of Canis lupus familiaris with 8 samples.

Results

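Among the miRNA names on the serum array, 41 were murine names numbered 5000 or higher, from mmu-miR-5046 and then mmu-miR-5097 to mmu-miR-5136. The rule was their number, and they were taken out of 1224 names analysed, of which 935 were murine. Serum RNA came from 8 client-owned Doberman Pinschers whose labels give an age range of 7 to 11 years. The study's table of the DCM dogs places the dog on DoCM8 well below that range and the dog on DoCM5 slightly above it. The DCM group held 4 dogs in the occult stage of dilated cardiomyopathy, all treated with pimobendan and an ACE inhibitor beside either sotalol or amiodarone, on the arrays labelled DoCM5 to DoCM8. According to the study, the dog on DoCM8 was not given its medication regularly. The control group held 4 healthy dogs, on the arrays labelled Con1 to Con4. Each array is a separate dog. DCM is therefore compared together with its therapy, and the 2 cannot be told apart here. The DCM arrays lay in row 1 of the slide and the control arrays in row 2, so row and group cannot be told apart either.

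MiRNAs are short RNAs that guide the silencing complex to matching messenger RNAs and lower their translation. In serum they circulate inside vesicles or bound to proteins, and reach it from blood cells and tissues. MiRNA names are numbered in the order in which they entered the registry, so the high murine numbers are late entries, found mostly by deep sequencing of mouse tissues. Late entries include sequences that were later questioned as fragments of other abundant RNAs, ribosomal RNA among them. For most of these names no target or function is well established, and none is assumed below. Whether any signal described here came from ribosomal RNA, or from a matching canine miRNA, was not tested, since no probe or miRNA sequence was used here. In serum, less of a miRNA and less RNA in the sample from its source cells cannot be told apart.

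Each name had 40 features, which are replicate spots, shared between 2 probes, or between 3 probes for mmu-miR-5118, mmu-miR-5119 and mmu-miR-5134. A feature was kept when the scanner software flagged it as well above background on at least 2 arrays of a group. With at least 1 kept feature, 26 of the 41 names passed (63.4%), against 35.8% of all 1224 names. The other murine names, which have a lower number or none, passed in 256 of 894 cases (28.6%), and the share lay between 28.3% and 29.8% in each of 3 bands of lower numbers. The canine names passed in 156 of 289 cases (54.0%). The late murine numbers were therefore detected more often in these sera than the earlier murine numbers, as a description of 1 array design and 8 dogs.

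**Figure D1:**
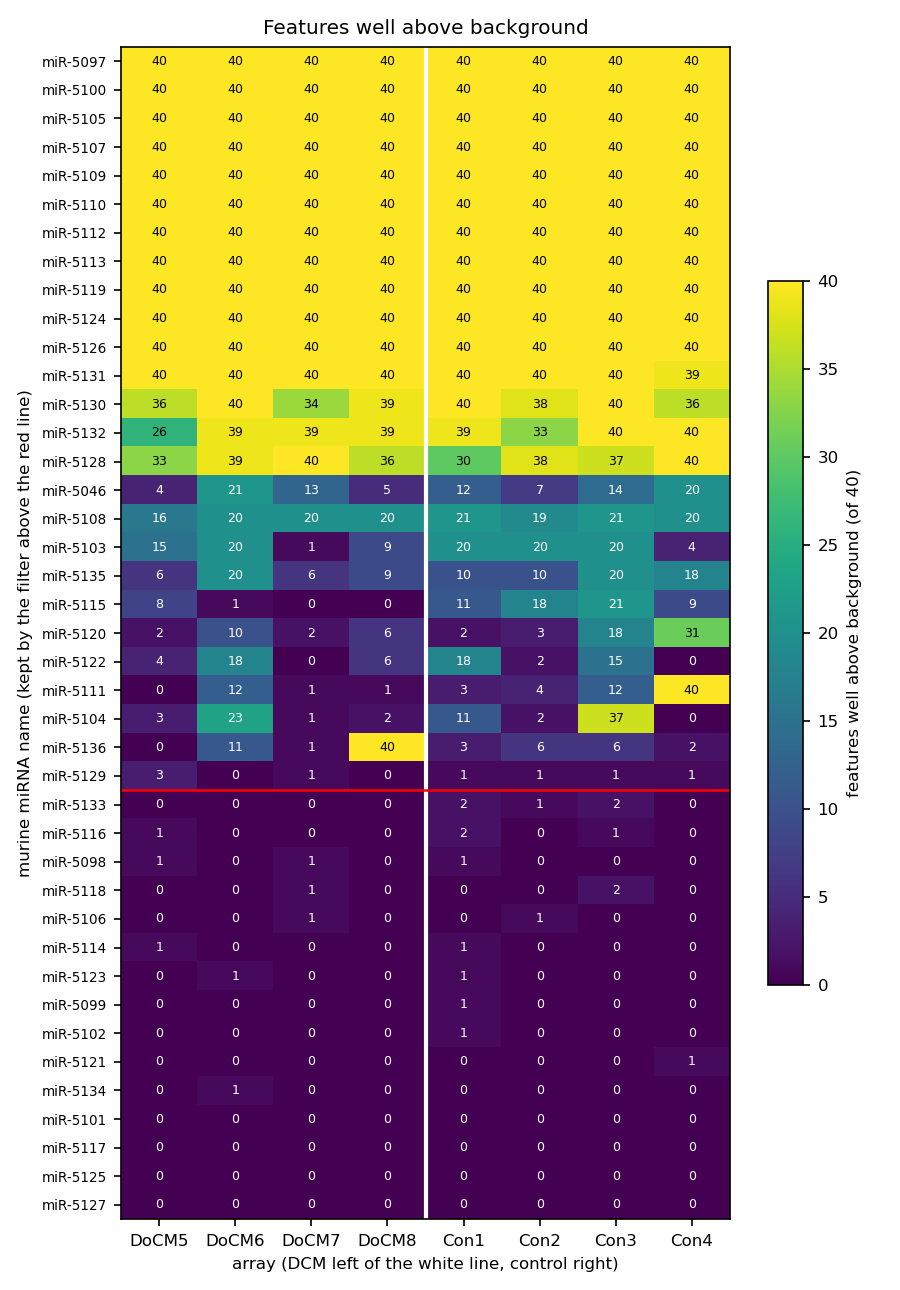
Each cell gives the features well above background, out of 40, for 1 of the 41 names (rows) on 1 array (columns), with the DCM arrays left of the white line. The 15 names at the top had every feature kept, 11 had between 1 and 22 kept, and the 15 names below the red line had none.

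Detection fell into 3 classes. In 15 names all 40 features were kept, and 11 of these had all 40 features well above background on each of the 8 arrays. These were mmu-miR-5097, mmu-miR-5100, mmu-miR-5105, mmu-miR-5107, mmu-miR-5109, mmu-miR-5110, mmu-miR-5112, mmu-miR-5113, mmu-miR-5119, mmu-miR-5124 and mmu-miR-5126. The other 4 were mmu-miR-5131, which lacked 1 feature on Con4, and mmu-miR-5128, mmu-miR-5130 and mmu-miR-5132, with between 26 and 40 features per array. The 40 spots of a name thus gave a near uniform answer in this class.

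The second class had between 1 and 22 of its features kept and held mmu-miR-5046, mmu-miR-5103, mmu-miR-5104, mmu-miR-5108, mmu-miR-5111, mmu-miR-5115, mmu-miR-5120, mmu-miR-5122, mmu-miR-5129, mmu-miR-5135 and mmu-miR-5136. In 6 of these 11 names the kept features all belonged to 1 of the 2 probes, namely mmu-miR-5103, mmu-miR-5111, mmu-miR-5115, mmu-miR-5122, mmu-miR-5129 and mmu-miR-5135. In mmu-miR-5108 a single kept feature came from the weaker probe. The name just inside the filter was mmu-miR-5129, with 1 kept feature.

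The 15 names without a kept feature had at most 2 features well above background on any array. For mmu-miR-5101, mmu-miR-5117, mmu-miR-5125 and mmu-miR-5127 no feature reached this level on any array. Just outside the filter, mmu-miR-5133 had 2 features on Con1, 1 on Con2 and 2 on Con3, and mmu-miR-5116 had 1 on DoCM5, 2 on Con1 and 1 on Con3. Next, mmu-miR-5118 had 1 on DoCM7 and 2 on Con3, mmu-miR-5098 had 1 on each of DoCM5, DoCM7 and Con1, and mmu-miR-5106 had 1 on each of DoCM7 and Con2. The features of mmu-miR-5114 (DoCM5 and Con1), mmu-miR-5123 (DoCM6 and Con1), mmu-miR-5099 and mmu-miR-5102 (Con1), mmu-miR-5121 (Con4) and mmu-miR-5134 (DoCM6) were single ones. These names were not well above background in this serum, which is no statement that their RNA was absent.

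Counted per array, 27, 27, 27 and 24 of the 41 names showed 1 or more features well above background on DoCM5 to DoCM8, and 33, 28, 29 and 25 on Con1 to Con4. The means were 26.2 ± 1.5 (SD) for the 4 DCM arrays against 28.8 ± 3.3 (SD) for the 4 control arrays, and the groups overlapped (exact permutation test, two-sided p = 0.286). With at least 50% of the features required, the means were 17.0 ± 2.2 and 18.0 ± 1.8 (n = 4 each; exact permutation test, two-sided p = 0.657). The smallest p that 4 against 4 arrays allow is 0.0286. Neither difference passed over all 8 arrays. Con4 was the only control array within the DCM range of the first count. Without it that difference was -3.75 (exact permutation test, two-sided p = 0.0286), a separation that the choice of the array left out fixes.

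Signals are given below on the glog2 scale of the vsn model, which is close to log2 for bright names and flattens near background. Levels are compared between arrays for 1 name at a time, since probes of different names differ in brightness for reasons of their own. The 16 names whose kept features were mostly above background on all 8 arrays are described first.

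The name with the most regular difference between the groups was mmu-miR-5109. Its glog2 values were 12.87, 13.96, 13.44 and 13.46 on DoCM5 to DoCM8 and 14.18, 14.80, 14.63 and 14.44 on Con1 to Con4. Every DCM array lay below every control array. Without DoCM8, the array that the study names as left out, DCM was lower by 1.10 on the log2 scale (13.42 ± 0.54, n = 3, against 14.52 ± 0.27, n = 4; SE 0.36, p = 0.0101 from limma, adjusted p = 0.9996; exact permutation test, two-sided p = 0.0286). Both probes of the name were lower in DCM over these arrays, by 0.93 and 1.15. Over all 8 arrays the groups did not overlap for the second of these probes, but did for the first.

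Groups without overlap over all 8 arrays occurred in 12 of the 438 kept names (2.74%), of which mmu-miR-5109 was the only murine name numbered 5000 or higher. Over all 8 arrays its difference was -1.09 (SE 0.30, p = 0.00367 from limma, adjusted p = 0.535; exact permutation test, two-sided p = 0.0286). The median correlation with the other arrays was lowest for DoCM5, 0.92 against 0.96 to 0.97, so comparisons are also given with DoCM5 left out in place of DoCM8. Whether the array that the study left out is the one labelled DoCM8 in these files was not settled here. There the difference of mmu-miR-5109 was -0.90 (SE 0.24, p = 0.00513 from limma, adjusted p = 0.375; exact permutation test, two-sided p = 0.0286), and the groups remained apart. It did not pass under quantile normalization, where it was -0.37.

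In the signal before normalization, the order of the arrays was different for mmu-miR-5109. The mean signals were 17400, 16292, 6568 and 9603 on DoCM5 to DoCM8 and 22028, 19426, 37527 and 15520 on Con1 to Con4, so that DoCM5 and DoCM6 exceeded Con4. The separation of the groups is thus a property of the normalized values. Beside it, the mean level of 4 erythrocyte miRNA names (miR-451, miR-144, miR-486 and miR-16, all well above background on all arrays) also separated the groups, in the opposite direction. It ran from 11.82 to 12.34 in DCM and from 11.12 to 11.78 in control (difference 0.46, exact permutation test, two-sided p = 0.0286), and its part in the result was not tested.

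The neighbouring name mmu-miR-5100 had 10.99, 12.40, 11.56 and 12.23 in DCM and 12.46, 13.06, 13.003 and 11.71 in control, in the order of the array labels. The groups overlapped through Con4. For mmu-miR-5105 the values were 6.95, 8.53, 7.49 and 8.00 in DCM and 8.73, 8.53, 8.75 and 7.56 in control, again with Con4 low among the controls. For both names the DCM mean was below the control mean under each choice of arrays, by 0.91, 0.76 and 0.49 for mmu-miR-5100 and by 0.74, 0.65 and 0.39 for mmu-miR-5105 (without DoCM8, with all 8 arrays and without DoCM5). None of these passed (smallest p = 0.0652 from limma; smallest exact permutation p, two-sided, 0.114). With Con4 left out beside DoCM8, both passed both limits at unadjusted p, with -1.19 for mmu-miR-5100 and -1.02 for mmu-miR-5105. They did so too with DoCM6 left out beside DoCM8, with -1.28 and -1.17 (adjusted p = 0.583 from limma for each). Con4 was the lowest control and DoCM6 the highest DCM array in both names, so the choice of the array left out favours these calls. Of all 438 names, 12 (2.74%) passed without Con4 and 32 (7.31%) without DoCM6.

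Values of mmu-miR-5113 were 5.72, 8.04, 6.57 and 6.79 in DCM and 6.68, 7.09, 7.62 and 6.98 in control. For mmu-miR-5107 they were 5.18, 6.95, 6.46 and 6.44 in DCM and 6.51, 6.71, 6.89 and 6.56 in control. In both names DoCM5 was the lowest and DoCM6 the highest of the 8 arrays. Their differences were -0.32 (SE 0.50) and -0.47 (SE 0.42) without DoCM8, and 0.04 (SE 0.38) and -0.05 (SE 0.22) without DoCM5. Single arrays moved both. With DoCM6 left out beside DoCM8 the difference of mmu-miR-5113 was -0.95, which passed both limits at unadjusted p (adjusted p = 0.583 from limma). That of mmu-miR-5107 was -0.85, which did not. Leaving out the highest array, a DCM array, favours a lower DCM mean. With DoCM5 left out beside DoCM8 the differences were 0.21 and 0.03.

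For mmu-miR-5131 the values were 4.21, 5.84, 4.95 and 6.43 in DCM and 5.55, 5.70, 5.74 and 4.98 in control. DoCM8 was highest and DoCM5 lowest. DoCM5 was the lowest for both of its probes, with 3.39 and 4.74, while DoCM8 was the highest for only 1 of them, with 7.27, and lay at 4.14 for the other, below DoCM6, Con2 and Con3. The difference was -0.49 (SE 0.42) without DoCM8 and 0.25 (SE 0.36) without DoCM5, neither past the limits. With DoCM6 left out beside DoCM8 it was -0.91, which passed both limits at unadjusted p (adjusted p = 0.583 from limma). DoCM6 and DoCM8 were the highest DCM arrays, so leaving out both favours that call.

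For mmu-miR-5097 the values were 7.30, 7.08, 9.05 and 8.51 in DCM and 8.78, 9.25, 8.07 and 8.81 in control. DoCM5 and DoCM6 lay below the 6 other arrays. The difference was -0.91 (SE 0.49, p = 0.0890 from limma; exact permutation p, two-sided, 0.229) without DoCM8, -0.74 (SE 0.45) with all 8 arrays and -0.51 (SE 0.47) without DoCM5. With DoCM7 left out beside DoCM8 it was -1.53, which passed both limits at unadjusted p (adjusted p = 0.863 from limma). DoCM7 and DoCM8 were the highest DCM arrays, so leaving out both favours that call. In that setting 13 of all 438 names passed (2.97%).

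In mmu-miR-5110 the values were 7.61, 9.05, 10.63 and 8.50 in DCM and 8.97, 9.49, 8.38 and 9.60 in control. The DCM arrays held both the highest (DoCM7) and the lowest (DoCM5) value, and both probes had their highest mean signal on DoCM7 (707 and 1198). The difference was -0.02 (SE 0.60) without DoCM8, -0.17 (SE 0.55) with all 8 arrays and 0.28 (SE 0.51) without DoCM5, and it ran from -0.78 to 0.73 as a further array was left out beside DoCM8. Its size and sign thus rest on single arrays.

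The values of mmu-miR-5126 were 10.82, 12.63, 12.81 and 12.77 in DCM and 12.93, 13.02, 12.36 and 12.91 in control. DoCM5 stood apart from the 7 other arrays. Its difference was -0.72 (SE 0.47) without DoCM8 and -0.07 (SE 0.23) without DoCM5. For mmu-miR-5124 they were 4.44, 6.30, 6.46 and 5.88 in DCM and 5.17, 5.78, 4.85 and 6.15 in control, again lowest on DoCM5. The difference was 0.24 (SE 0.52) without DoCM8 and 0.72 (SE 0.34, p = 0.0604 from limma; exact permutation p, two-sided, 0.114) without DoCM5.

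The remaining 6 of the names above background on all arrays showed no difference past the limits under the 3 choices of arrays. The values of mmu-miR-5119 were 6.82, 8.13, 9.09 and 8.37 in DCM and 8.03, 8.52, 7.62 and 8.59 in control, and those of mmu-miR-5112 were 6.60, 7.97, 8.18 and 7.72 in DCM and 7.85, 8.42, 7.75 and 8.09 in control. For mmu-miR-5130 they were 4.26, 5.67, 6.08 and 5.60 in DCM and 5.56, 5.83, 5.29 and 5.81 in control. DoCM5 was the lowest array for all of these 3 names. For mmu-miR-5132 they were 3.41, 4.62, 4.91 and 4.28 in DCM and 4.20, 4.41, 4.38 and 4.78 in control. The values of mmu-miR-5128 were 2.89, 3.30, 3.92 and 3.27 in DCM and 2.85, 3.64, 2.83 and 3.88 in control, and those of mmu-miR-5108 were 2.74, 3.09, 4.00 and 3.49 in DCM and 3.40, 3.58, 2.74 and 4.04 in control. Under these choices the differences of the 6 lay between -0.44 and 0.34. As a further array was left out beside DoCM8, they ran from -0.72 to 0.42 for mmu-miR-5119, from -0.74 to 0.05 for mmu-miR-5112 and from -0.66 to 0.25 for mmu-miR-5130. The ranges were -0.43 to 0.32 for mmu-miR-5132, -0.21 to 0.31 for mmu-miR-5128 and -0.52 to 0.11 for mmu-miR-5108.

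**Figure D2:**
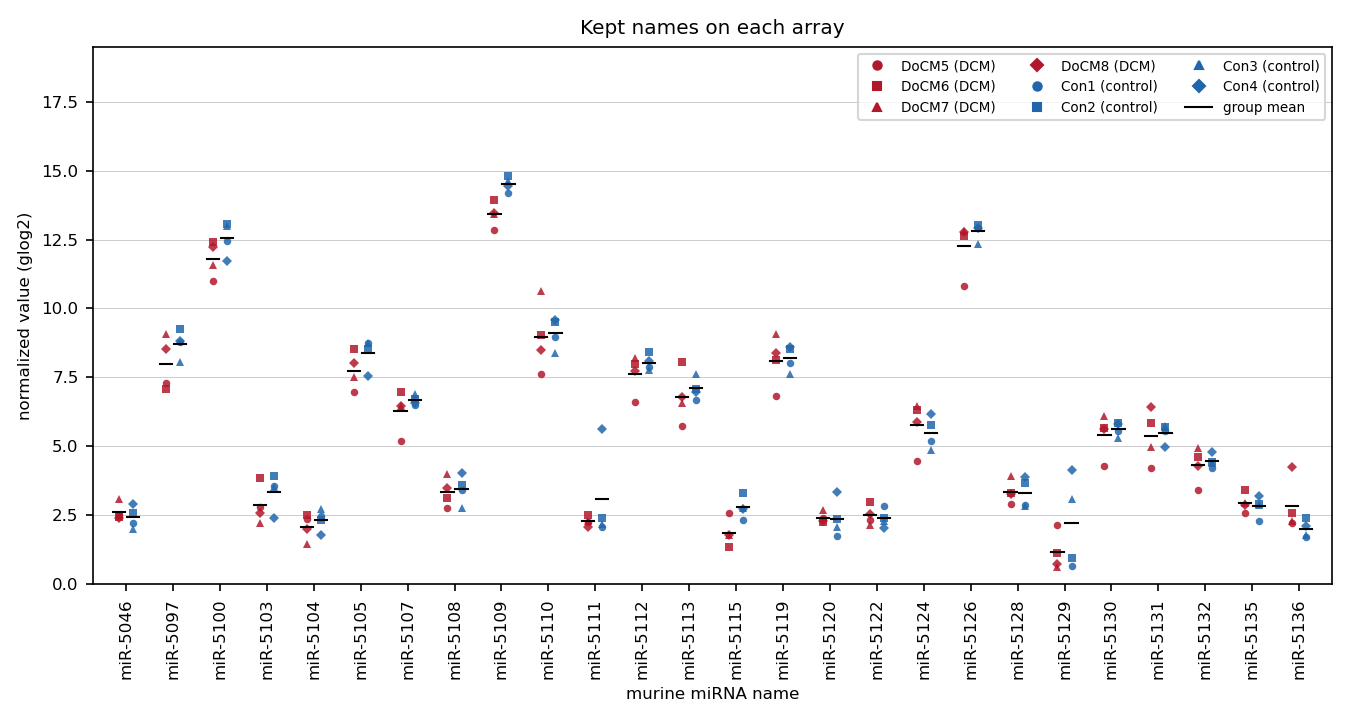
Points give the normalized value (glog2) of each of the 26 kept names on each array, red for DCM and blue for control, and black lines give the group means. In mmu-miR-5109 the 4 DCM arrays (12.87 to 13.96) lie below the 4 control arrays (14.18 to 14.80), while Con4 stands apart in mmu-miR-5111 (5.62) and DoCM8 in mmu-miR-5136 (4.22).

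The 10 other kept names were above background on some arrays only. For mmu-miR-5115 the features well above background, over all 40, numbered 8, 1, 0 and 0 on DoCM5 to DoCM8 and 11, 18, 21 and 9 on Con1 to Con4. The counts did not overlap (2.25 ± 3.86 in DCM and 14.8 ± 5.7 in control, SD, n = 4 each; exact permutation test, two-sided p = 0.0286, adjusted p = 1). Of the 818 names whose feature count varied between arrays, 3 had groups without overlap (0.367%), and 26 of the 818 were names numbered 5000 or higher.

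On the glog2 scale mmu-miR-5115 had 2.57, 1.32, 1.77 and 1.76 in DCM and 2.32, 3.31, 2.75 and 2.73 in control. The groups overlapped through DoCM5. At least 50% of its kept features were well above background on 0 of 4 DCM arrays and on 3 of 4 control arrays. DCM thus has only an upper bound. A fold was computed with DCM values raised, where lower, to the lowest level of any name above background on their array. It was 1.42, 1.39 and 1.48 without DoCM8, with all 8 arrays and without DoCM5. It is no minimum, since it carries no error and the control mean includes Con4, which was not above background. In the same order the fitted differences, which are not exact folds, were -0.89 (SE 0.39, p = 0.0419 from limma, adjusted p = 0.9996), -0.92 (SE 0.33, p = 0.0174 from limma, adjusted p = 0.961) and -1.16 (SE 0.27, p = 0.00229 from limma, adjusted p = 0.260). Their exact permutation p (two-sided) was 0.0857, 0.0571 and 0.0286. The kept features were selected by the control arrays, since all 19 passed the filter through the control group and 0 through DCM, so that a lower DCM value was favoured by the selection and the fitted p-values give it no support of their own. The call was also lost when DoCM6, DoCM7, Con2, Con3 or Con4 was left out beside DoCM8, with differences of -0.61, -0.83, -0.71, -0.90 and -0.91. All kept features of mmu-miR-5115 came from 1 probe, and the other probe had at most 1 feature well above background on any array.

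One array stood far above the others in mmu-miR-5136 and in mmu-miR-5111. In mmu-miR-5136 the features well above background numbered 0, 11, 1 and 40 in DCM and 3, 6, 6 and 2 in control. The glog2 values were 2.20, 2.57, 2.26 and 4.22 in DCM and 1.70, 2.40, 1.76 and 2.10 in control. Both probes were high on DoCM8, with all 20 features of each above background, and neither had more than 10 on another array. The fitted difference was 0.35 (SE 0.33) without DoCM8, 0.82 (SE 0.43, p = 0.0804 from limma) with all 8 arrays and 1.03 (SE 0.45, p = 0.0480 from limma, adjusted p = 0.718; exact permutation p, two-sided, 0.0571) without DoCM5. The last passed both limits and rests on DoCM8. No control array had the name well above background, while 1 of 3, 2 of 4 and 2 of 3 DCM arrays did under these choices. Control thus has only an upper bound, and the fitted differences are not exact folds. Of its 12 kept features 9 passed the filter through DCM only, 1 through control only and 2 through both. A higher DCM value was thus favoured by the selection.

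The mirror image was mmu-miR-5111, whose features above background numbered 0, 12, 1 and 1 in DCM and 3, 4, 12 and 40 in control. The glog2 values were 2.23, 2.50, 2.26 and 2.04 in DCM and 2.07, 2.38, 2.18 and 5.62 in control. Con4 stood alone, with all 20 features of both probes above background. Without that dog the other control values lay among those of DCM. With all 8 arrays the difference was -0.80 (SE 0.66, p = 0.245 from limma; exact permutation p, two-sided, 0.657), and without DoCM8 and Con4 it was 0.12.

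Con4 was also the highest array for mmu-miR-5120, with 2.40, 2.24, 2.69 and 2.28 in DCM and 1.72, 2.33, 2.05 and 3.34 in control. It was well above background on Con3 and Con4 only. The single kept feature of mmu-miR-5129 gave 2.13, 1.12, 0.59 and 0.73 in DCM and 0.64, 0.94, 3.07 and 4.13 in control. It too was above background on Con3 and Con4 only, while the mean over all features of that probe was below 1 signal unit on all arrays. The fitted difference of mmu-miR-5129, -0.91 (SE 0.76) without DoCM8, thus rests on 1 spot on each of 2 control arrays.

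The signals of mmu-miR-5103 were 2.78, 3.85, 2.22 and 2.55 in DCM and 3.55, 3.92, 3.51 and 2.40 in control. Those of mmu-miR-5104 were 2.34, 2.51, 1.43 and 2.0 in DCM and 2.47, 2.33, 2.71 and 1.78 in control. DoCM7 was the lowest array in both, and Con4 the lowest control. For mmu-miR-5122 they were 2.30, 2.97, 2.13 and 2.53 in DCM and 2.81, 2.37, 2.26 and 2.04 in control. For mmu-miR-5135 they were 2.55, 3.41, 2.94 and 2.84 in DCM and 2.26, 2.91, 2.85 and 3.19 in control, and for mmu-miR-5046 2.49, 2.44, 3.09 and 2.37 in DCM and 2.19, 2.58, 2.0 and 2.89 in control. In these 5 names the groups overlapped and no difference passed, the range over the 3 choices of arrays being -0.49 to 0.26.

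Over the 26 kept names, 2 passed an unadjusted p under 0.05 with a fitted fold change over 1.5 without DoCM8 (mmu-miR-5109 and mmu-miR-5115), where 11 of 438 names did on the whole array (2.51%). Of these, mmu-miR-5115 passed by its fitted fold only, since the fold with DCM raised to the background level was 1.42 without DoCM8, under the limit. It also had all its kept features selected by the control group and lost its call in 5 of 7 fits that left out a further array. The same 2 passed with all 8 arrays, where the share on the whole array was 3.88%. Without DoCM5, mmu-miR-5136 joined them, and the share was 5.25%. After Benjamini-Hochberg adjustment over all 438 names in limma, 0 of the 26 passed at 0.05 under any of these choices, against 2, 2 and 3 at an unadjusted p under 0.05. On the whole array 0 of 438 passed after adjustment in each case, against 11, 18 and 29 at an unadjusted p under 0.05. With counts of 2 or 3, no excess of calls among the late murine names is claimed.

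The median difference of the 26 names was -0.30 without DoCM8 and -0.24 with all 8 arrays, where the medians of all 438 names were 0.0016 and -0.00067. The DCM mean was below the control mean in 19 of the 26 names in each. These counts include mmu-miR-5111, mmu-miR-5115 and mmu-miR-5129, which passed the filter through the control group alone, so they are a description and no test. Control alone also passed 14 of 17 kept features of mmu-miR-5120, 9 of 12 of mmu-miR-5104 and 12 of 22 of mmu-miR-5046. In mmu-miR-5136 DCM alone passed 9 of 12. Without DoCM5 the median was 0.04 and 12 of the 26 were lower (46.2%), against 49.8% of all 438 names. The overall lean towards lower values in DCM thus rests on DoCM5, the array that was lowest of the 8 for 14 of the 26 names.

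**Figure D3:**
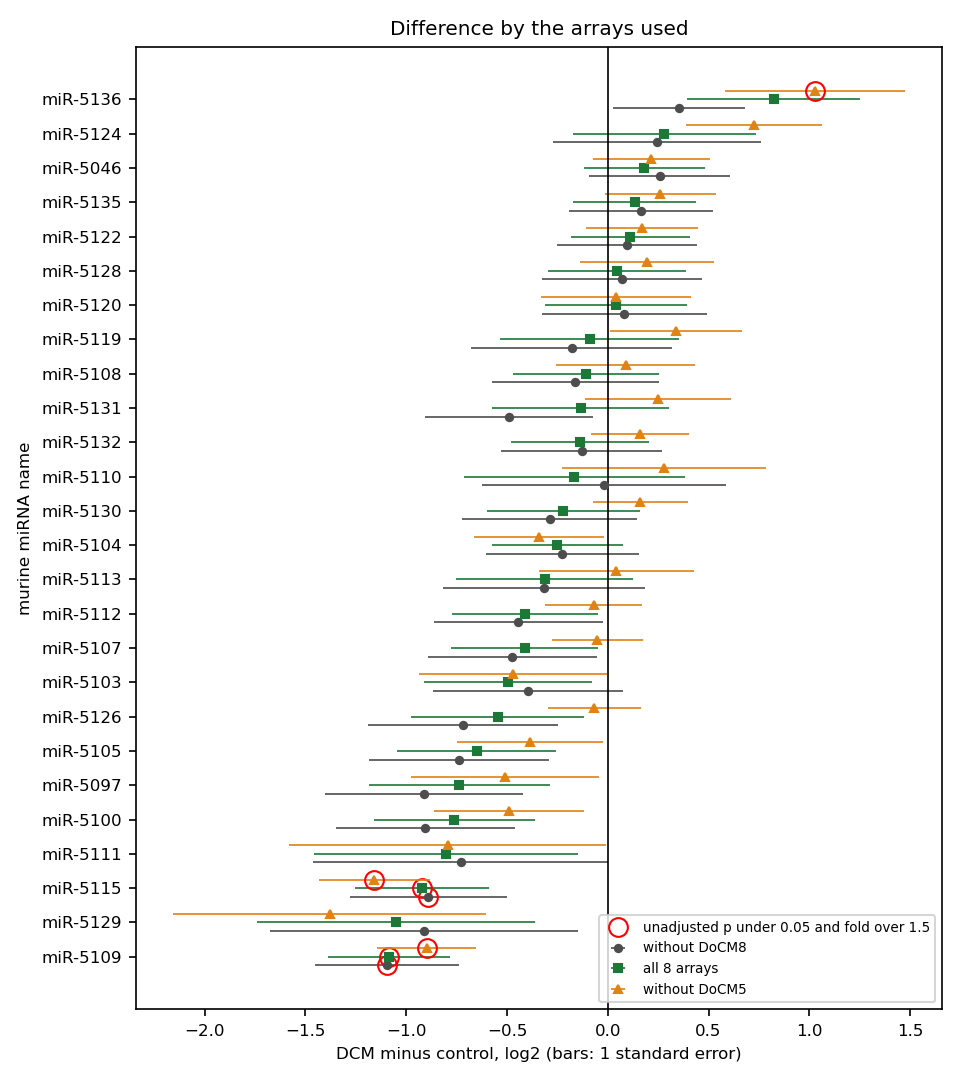
Each point is the difference DCM minus control (log2) of 1 of the 26 kept names with 1 standard error, for the arrays without DoCM8, all 8 arrays and those without DoCM5, and red rings mark an unadjusted p under 0.05 with a fitted fold over 1.5. Rings fall on mmu-miR-5109 and mmu-miR-5115 in all 3 sets and on mmu-miR-5136 without DoCM5, and many points move right when DoCM5 is left out.

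The probes of a name served as a check of these differences. In the 15 names with all features kept, the difference over 8 arrays was computed for each probe. It had the same sign for all probes in 13 of 15 names, the exceptions being mmu-miR-5128 and mmu-miR-5132. The gap between the probes of a name had a median of 0.08 and reached 0.31 in mmu-miR-5132 and 0.28 in mmu-miR-5109. Probes share the sample and the array, so this describes agreement of the spots and not of the dogs.

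Before normalization, the arrays differed in brightness, with a median log2 signal between 5.09 on DoCM7 and 6.82 on DoCM5, a 3.31-fold range, over the 276 names above background on all arrays. The groups did not differ in it (5.88 ± 0.71 in DCM and 5.80 ± 0.54 in control, SD, n = 4 each; exact permutation test, two-sided p = 0.886). Some of the late murine names did not follow this range. The mean signal of mmu-miR-5119 was 258, 289, 324 and 283 in DCM and 313, 252, 293 and 270 in control, a 1.29-fold range. That of mmu-miR-5128 was 10.99, 11.4, 10.3 and 9.64 in DCM and 10.5, 10.4, 12.2 and 12.0 in control, a 1.27-fold range. The median range over the 276 names was 4.47-fold.

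Ranked by the SD of the log2 signal, mmu-miR-5128 was the second and mmu-miR-5119 the fifth steadiest of the 276 names, with SDs of 0.12 and 0.13. The 28 steadiest names included 4 of the 16 late murine names, the others being mmu-miR-5108 (0.22) and mmu-miR-5130 (0.26). The mean signals of mmu-miR-5128 and mmu-miR-5108 were at most 12.2 and 14.7, close to those of names above background on some arrays only. Whether a remainder of background made these signals steady was not tested. The median SD was 0.42 over the 16 and 0.76 over the 276. Other members varied more than the 3.31-fold range of the array medians. The range was 6.75-fold in mmu-miR-5100, 5.92-fold in mmu-miR-5105, 5.71-fold in mmu-miR-5109 and 5.08-fold in mmu-miR-5113, and in all 4 the lowest signal was on DoCM7 and the highest on Con3. The late murine names were thus a mixture of steady and variable signals.

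**Figure D4:**
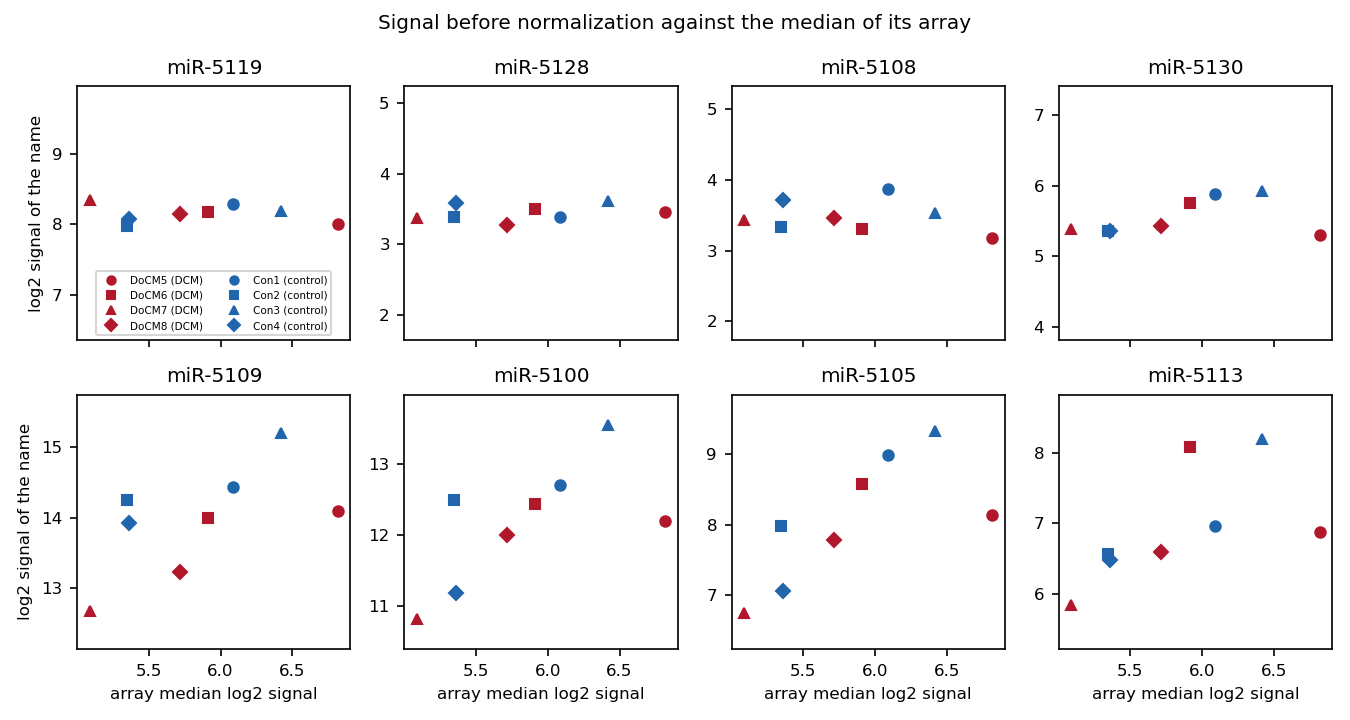
Each panel gives the log2 of the mean signal of 1 name against the median log2 signal of its array, before normalization, with the same vertical span in each panel (red DCM, blue control). The names in the top row change by at most 1.61-fold between arrays, and those in the bottom row go up from DoCM7 to Con3 and are lower on DoCM5 than on Con3.

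After normalization a steady signal appears as a low value on a bright array. The correlation of the glog2 value with the array's median log2 signal passed an adjusted p of 0.05 in 8 of the 26 names, against 64 of all 438 names (14.6%; exact permutation over the pairings of arrays, adjusted over 438 names). All 8 were negative. For mmu-miR-5119 r was -0.98 (Spearman's rho -0.98) over 8 arrays (exact permutation p = 4.96e-05 for r and 0.000397 for rho, adjusted p = 0.00543 for r). For mmu-miR-5130 r was -0.90 (rho -0.98; exact permutation p = 0.000124 and 0.000397, adjusted p = 0.00679 for r). The others were mmu-miR-5108, mmu-miR-5128, mmu-miR-5110, mmu-miR-5124, mmu-miR-5112 and mmu-miR-5126, with r from -0.92 to -0.79.

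Without DoCM5 and DoCM7, the 2 arrays farthest from the median brightness, r was -0.98 for mmu-miR-5119 and -0.95 for mmu-miR-5130, and it lay between -0.94 and -0.72 for the other 6. By contrast r was -0.30 for mmu-miR-5109, -0.12 for mmu-miR-5100 and 0.08 for mmu-miR-5115 (exact permutation, adjusted p = 0.637, 0.874 and 0.936). The highest was 0.72 in mmu-miR-5104 (adjusted p = 0.145 by the same permutation). The medians were -0.47 over the 26 names and -0.0047 over all 438.

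Pairs of names were compared over the 8 arrays. The 26 kept names form 325 pairs, and Pearson's r had a median of 0.25, with 221 pairs positive. Over all 95703 pairs of kept names the median was -0.03, with 46290 positive. In the 120 pairs among the 16 names above background on all arrays the median was 0.64, with 113 positive. For all names of that kind it was -0.02, with 18679 of 37950 pairs positive. Without DoCM5 the medians fell to 0.02 for the 26 and 0.03 for the 16 names, while they stayed at -0.02 and -0.03 for all names. The excess of positive correlations thus rests on DoCM5, on which most of these names were low.

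After adjustment over all pairs, 0 of the 95703 pairs passed an adjusted p of 0.05 (0%), and 0 of the 325, although 59 of the 325 (18.2%) and 16237 of all (17.0%) had an unadjusted exact permutation p under 0.05. The smallest adjusted p among the 325 was 0.0609. A pair of blocks can be read in the matrix as a description. One holds mmu-miR-5119, mmu-miR-5130, mmu-miR-5112, mmu-miR-5132, mmu-miR-5126, mmu-miR-5110, mmu-miR-5124, mmu-miR-5108 and mmu-miR-5128, which are the names with the strongest negative relation to brightness. Some of its pairs turned without DoCM5 and Con3, from 0.71 to -0.54 for mmu-miR-5124 with mmu-miR-5126 and from 0.82 to -0.24 for mmu-miR-5126 with mmu-miR-5132. Others held, such as mmu-miR-5112 with mmu-miR-5132, at 0.92 without DoCM5 and Con2. The other block holds mmu-miR-5100, mmu-miR-5105, mmu-miR-5109, mmu-miR-5113, mmu-miR-5107 and mmu-miR-5131. Its pairs had r from 0.41 to 0.94, but without the 2 arrays farthest from the median of the first name most were much lower, such as 0.25 for mmu-miR-5105 with mmu-miR-5109, 0.28 for mmu-miR-5100 with mmu-miR-5113 and -0.20 for mmu-miR-5109 with mmu-miR-5131. Over all arrays the blocks were not separate either, since mmu-miR-5107 had r of 0.84 with both mmu-miR-5112 and mmu-miR-5126 (rho 0.45 and 0.14). Without DoCM5 and DoCM6 these r were 0.005 and -0.57, so that both relations rest on those arrays.

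**Figure D5:**
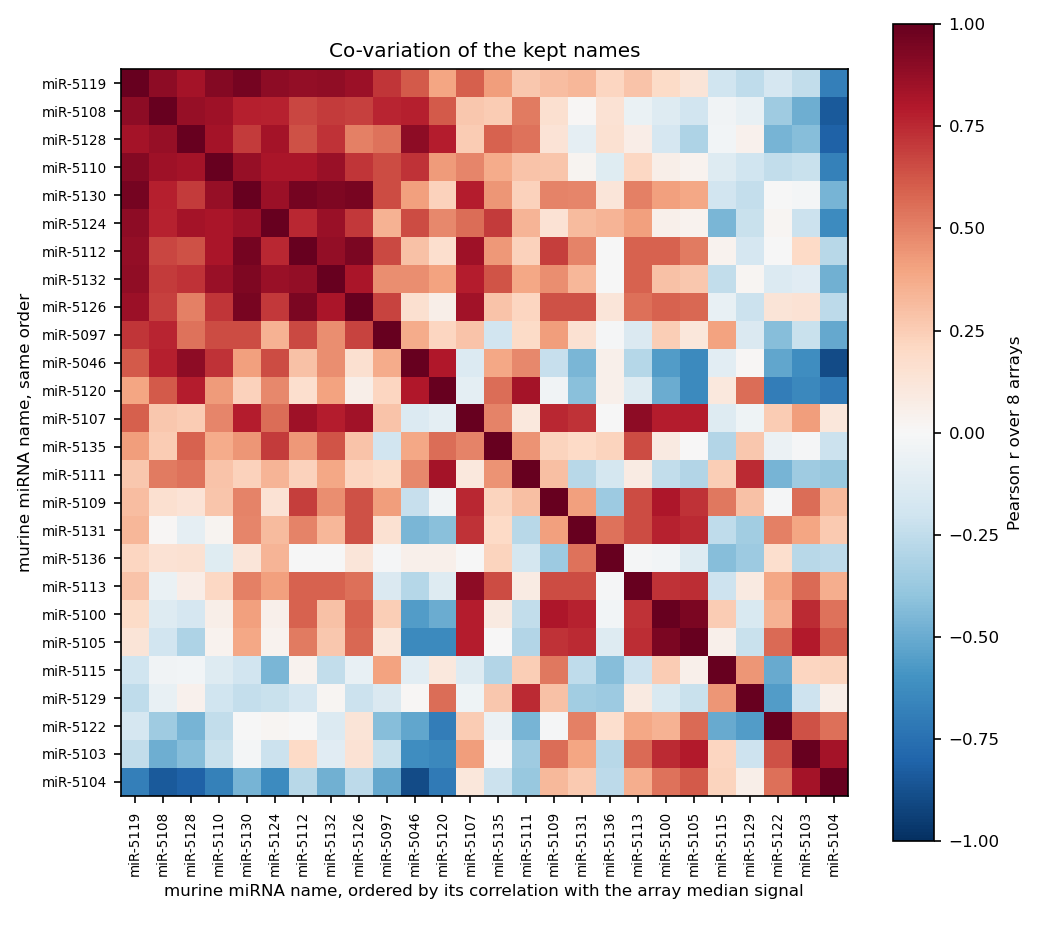
Colours give Pearson's r over the 8 arrays for each pair of the 26 kept names, ordered along both axes by their correlation with the array median signal from -0.98 (mmu-miR-5119) to 0.72 (mmu-miR-5104). The red block at the upper left holds the names that are low on bright arrays, and the smaller one around mmu-miR-5100 and mmu-miR-5105 has r up to 0.94.

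The highest r was that of mmu-miR-5119 with mmu-miR-5130, 0.96 (rho 0.95; exact permutation p = 0.000149 and 0.00114, adjusted p = 0.0625 and 0.144), and it was 0.94 without DoCM5 and DoCM7. For mmu-miR-5100 with mmu-miR-5105 r was 0.94 (rho 0.86; exact permutation p = 0.000719 and 0.0107, adjusted p = 0.0863 and 0.245), and 0.83 without the same arrays. For mmu-miR-5107 with mmu-miR-5113 r was 0.90 (rho 0.93; exact permutation p = 9.92e-05 and 0.00223, adjusted p = 0.0609 and 0.169), and 0.96 without DoCM5 and DoCM6. In mmu-miR-5126 with mmu-miR-5130 r fell from 0.95 (rho 0.64; exact permutation p = 0.00843 and 0.0962, adjusted p = 0.156 and 0.475) to 0.14 without DoCM5 and Con3, so that this relation rests on those arrays. The lowest r was that of mmu-miR-5046 with mmu-miR-5104, -0.89 (rho -0.81; exact permutation p = 0.00270 and 0.0218, adjusted p = 0.116 and 0.296), and -0.68 without DoCM7 and Con3.

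Of the 78 nearest names, 3 for each of the 26, 5 were themselves numbered 5000 or higher (6.41%), where 25 of the 437 other kept names are (5.72%). The nearest names were thus drawn from the late murine numbers about as often as the whole array holds them. The 3 nearest of mmu-miR-5109 were mmu-miR-1957 (r = 0.89), mmu-miR-3102-5p.2 (0.88) and cfa-miR-188 (0.88). Those of mmu-miR-5115 were cfa-miR-145 (0.80), mmu-miR-1968 (0.79) and cfa-miR-30d (0.77). These are descriptions over the same 8 arrays, which differ in brightness, with no claim of shared control.

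In the block around mmu-miR-5100, its nearest names were mmu-miR-125a-3p (0.95), mmu-miR-135a-1* (0.95) and mmu-miR-5105 (0.94). For mmu-miR-5105 they were mmu-miR-135a-1* (0.99), mmu-miR-212-3p (0.96) and mmu-miR-211* (0.94), and for mmu-miR-5107 mmu-miR-1897-5p (0.99), mmu-miR-1904 (0.96) and cfa-miR-134 (0.96). The nearest of mmu-miR-5113 were mmu-miR-882 (0.98), mmu-miR-3095-3p (0.97) and mmu-miR-1895 (0.97). Those of mmu-miR-5131 were mmu-miR-187* (0.93), mmu-miR-1906 (0.92) and cfa-miR-29a (0.86). Outside that block, the nearest of mmu-miR-5103 were mmu-miR-1965 (0.95), mmu-miR-339-3p (0.93) and mmu-miR-677* (0.90), and those of mmu-miR-5104 were mmu-miR-339-3p (0.90), cfa-miR-129 (0.88) and mmu-miR-1965 (0.86).

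In the block of names that were low on bright arrays, mmu-miR-5119 was nearest to mmu-miR-3070a (0.99), mmu-miR-150* (0.99) and mmu-miR-1934* (0.97). The nearest of mmu-miR-5130 were cfa-miR-874 (0.99), mmu-miR-671-5p (0.98) and mmu-miR-680 (0.98), and cfa-miR-874 (0.98) was also the nearest of mmu-miR-5112, before mmu-miR-5130 (0.96) and mmu-miR-1896 (0.95). For mmu-miR-5126 they were mmu-miR-680 (0.97), mmu-miR-705 (0.97) and mmu-miR-671-5p (0.97). For mmu-miR-5124 they were mmu-miR-1941-5p (0.97), cfa-miR-631 (0.95) and mmu-miR-1934* (0.93), and for mmu-miR-5132 cfa-miR-631 (0.94), mmu-miR-5130 (0.93) and mmu-miR-1941-5p (0.93). Several of these partners recurred from name to name.

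Within the same block mmu-miR-5128 was nearest to mmu-miR-344c* (0.98), mmu-miR-1931 (0.97) and mmu-miR-770-3p (0.97). The nearest of mmu-miR-5110 were mmu-miR-3106 (0.95), mmu-miR-3473b (0.94) and mmu-miR-5119 (0.92). Those of mmu-miR-5108 were cfa-miR-574 (0.96), mmu-miR-22* (0.96) and mmu-miR-877* (0.93). Outside the block, the nearest of mmu-miR-5046 were mmu-miR-344c* (0.94), mmu-miR-3070b-3p (0.91) and mmu-miR-5128 (0.90), and those of mmu-miR-5097 were mmu-miR-720 (0.93), mmu-miR-30a (0.91) and cfa-miR-214 (0.90).

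Among the dim names, mmu-miR-5120 was nearest to mmu-miR-500 (0.90), mmu-miR-291b-5p (0.88) and mmu-miR-702 (0.87), mmu-miR-5122 to mmu-miR-760-5p (0.86), cfa-miR-181a (0.83) and cfa-miR-718 (0.76), and mmu-miR-5135 to mmu-miR-135b* (0.86), cfa-miR-454 (0.85) and mmu-miR-678 (0.84). The nearest of mmu-miR-5111 were cfa-miR-1837 (0.90), mmu-miR-3107* (0.87) and mmu-miR-741* (0.85), with Spearman's rho of 0.21, 0.33 and 0.14. Those of mmu-miR-5136 were mmu-miR-598* (0.85), cfa-miR-29b (0.84) and mmu-miR-26b* (0.80), with rho of 0.98, 0.57 and -0.02, and those of mmu-miR-5129 were cfa-miR-1837 (0.90), mmu-miR-504* (0.82) and mmu-miR-744 (0.81), with rho of 0.69, 0.83 and 0.62.

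Markers of blood cells and tissues were read on the same arrays as a check of the sample. Beside the erythrocyte names given above, all 7 leukocyte names and all 4 platelet names on the array were kept, with mean levels that overlapped between the groups (7.36 to 7.65 in DCM and 7.12 to 7.58 in control for leukocyte names, and 6.18 to 6.98 and 6.39 to 6.61 for platelet names). Of the 7 heart and muscle names 4 were kept, and cfa-miR-133a, cfa-miR-208a and cfa-miR-208b were not. The liver name miR-122 ran from 4.92 to 7.37 in DCM and from 5.32 to 7.69 in control. The part of these sources in the late murine names was not tested.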

How the data were processed

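Serum RNA of 4 dogs with DCM and 4 healthy dogs was measured on 8 one-colour arrays of 1 slide. Per the file headers, each deposited intensity is a background-subtracted value of Agilent Feature Extraction 10.7.3.1, which the authors left unnormalized between arrays, beside other columns with flags for detection and outliers. Groups were taken from the labels. On each array its outlier-flagged features were dropped, and the mean of the kept features of a name was calibrated by the vsn model in an own implementation (least trimmed squares, quantile 0.9, 5 slices, 7 iterations) over all 8 arrays. Groups were compared with limma 3.58.1 in R 4.3.3, adjusted over all 438 kept names (Benjamini-Hochberg), and with exact permutation tests, two-sided. The 2 limits were p under 0.05 and a fitted fold over 1.5. The procedure was tested on simulated data. Pairs of names were tested over the 40320 pairings of the arrays. Every kept name is named, with its 3 nearest names. The members and marker lists were chosen with earlier results of these data known. Alternatives covered the arrays, calibration, filter, averaging and test. The number of arrays limits the precision, and no sequences were used here.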

Additional observations from a re-analysis of the deposited data

Results flagged for a closer look

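In 52 groups of 4 arrays (26 names in each group), 3 had a single array set far enough from its neighbour, relative to the group's range, to pass Dixon's 95% limit, where chance gives about 1 in 20, here 2.6. In the control group Con4 was the highest for mmu-miR-5111, with 5.62 against 2.07 to 2.38 and a gap of 0.911 of the range. In the DCM group DoCM5 was the lowest for mmu-miR-5126, with 10.82 against 12.63 to 12.81 and a gap of 0.913 of the range. In the DCM group DoCM7 was the highest for mmu-miR-5046, with 3.09 against 2.37 to 2.49 and a gap of 0.830 of the range.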

How the results depend on the processing

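DCM and control arrays carry different replicate numbers, so the dogs were not paired. Each slide column held 1 DCM and 1 control array. With slide column as a block, 2 of the 26 names passed both limits, where 13 of all 438 names did (2.97%). Alternatives were planned, except the outlier-flagged features kept and the normexp correction, planned on the mean signal and run on the median signal, which were added after seeing the data. The count of names past both limits, 2 without DoCM8, was 1 with quantile normalization, 1 with 1 array well above background enough, 1 with at least 50% of the features kept, 1 with outlier-flagged features kept and 0 with normexp, where 2.74%, 2.63%, 2.01%, 2.51% and 0.457% of all names tested passed. It was 3 with array weights, the 75th percentile of all names, the median over features and no filter, where 7.76%, 5.25%, 3.20% and 3.35% passed. It ranged from 1 to 5 as single arrays were dropped, the 1 being without Con2 or Con3, where 2.05% and 2.74% of all 438 names passed, and the 5 without DoCM6, where 7.31% did. Over all names 11 passed without DoCM8, and the count was over 1.5 times that with all 8 arrays (17), DoCM5 left out in place of DoCM8 (23) or beside it (28), DoCM6 left out (32), array weights (34), the 75th percentile of all names (23), 1 array enough (26) and no filter (41), and it was 7 with at least 50% of the features kept and 2 with normexp. The call of mmu-miR-5109 was lost in 2 of 23 settings (quantile, -0.37, and normexp, -0.37) and that of mmu-miR-5115 in 9, with no value where at least 50% of its features had to be kept. With each array left out their differences ran from -1.36 to -0.82 and from -1.23 to -0.61. The median difference stayed within the spread between arrays in each setting, but its sign turned without DoCM5 (0.04, and 0.08 with DoCM8 left out too). Kept names numbered 41 without a filter, 37 with 1 array enough and 18 with at least 50% of the features. Names above background per array differed by -2.50, between -3.75 and -1.08 with an array left out, and without Con4 the exact permutation p was 0.0286. The median r of 0.25 was 0.64 with 75th percentile scaling over detected names and 0.37 with quantile normalization, and ran from 0.0165 (without DoCM5) to 0.307 with an array left out. The causes were not tested. The dim names are limited by their signal over background.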
